A study of Mus musculus with 6 samples.

Results

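Zinc-binding and zinc-transporting genes were followed in the hippocampus of mice with a stroke-like injury and of sham-operated mice. The members were 9 of the 41386 genes in the deposited table, chosen by name. They comprised the metallothioneins Mt1, Mt2 and Mt3, the Slc30 family transporters Slc30a1, Slc30a3 and Slc30a10, the importers Slc39a14 and Slc39a8, and Mtf1, the zinc-sensing transcription factor. All 9 were in the table under their own names, and all 9 passed the filter on low counts that left 18569 genes for testing.

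The study asked how gene expression in the hippocampus differs after cerebral ischemia-reperfusion (I/R). The 3 I/R libraries came from mice with 1.5 h of middle cerebral artery occlusion, made by a filament passed up the left carotid, followed by 24 h of reperfusion. The 3 sham libraries came from mice that had the operation without the filament. Both groups were adult male C57BL/6J mice operated on under isoflurane at 56 days of age. Per the study's methods, the hippocampi taken for RNA after I/R were ipsilateral, and each library pooled 3 hippocampi. The n of 3 therefore counts pools, and the spread given is that between pools. The I/R and sham libraries held 37493042 to 44788547 counts, and the members' counts ran from 104 to 126488 per library. Levels are given as CPM, a gene's counts per 1000000 counts of its library, after TMM scaling, which corrects library sizes for differences in RNA composition. Dentate granule markers summed to 620 to 698 CPM and pyramidal markers to 1002 to 1057 CPM in the sham libraries, and none of these markers was listed at 0.

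Metallothioneins are small cysteine-rich proteins that bind zinc and copper and buffer free zinc in the cytosol. When zinc rises, MTF1 enters the nucleus and binds metal response elements in the promoters of Mt1, Mt2 and Slc30a1, and glucocorticoids and STAT3 signaling also induce Mt1 and Mt2. Proteins of the SLC30 (ZnT) family move zinc out of the cytosol, while those of the SLC39 (ZIP) family move it in. The hippocampus is known for a zinc pool in the synaptic vesicles of glutamatergic terminals, above all the mossy fibers of dentate granule cells, which ZnT3 (Slc30a3) loads.

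The starts of Mt1, Mt2 and Mt3 are shown because Mt1 and Mt2 rose after I/R while Mt3 was not called, although the 3 genes lie side by side on chromosome 8. Each line is 280 bases of RefSeq sequence on the plus strand of GRCm38.p6, 250 before the RefSeq start and 30 after it, from chr8:94178839-94179118 for Mt1, chr8:94172368-94172647 for Mt2 and chr8:94152357-94152636 for Mt3. Capitals mark the metal response element core, searched as TGCACNC or TGCGCNC on either strand, with overlapping matches counted once.
Mt1: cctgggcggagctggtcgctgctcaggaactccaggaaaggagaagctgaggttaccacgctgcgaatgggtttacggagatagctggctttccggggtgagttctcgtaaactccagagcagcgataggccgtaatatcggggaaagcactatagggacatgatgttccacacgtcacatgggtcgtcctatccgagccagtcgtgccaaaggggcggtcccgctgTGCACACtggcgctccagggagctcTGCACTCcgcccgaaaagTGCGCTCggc
Mt2: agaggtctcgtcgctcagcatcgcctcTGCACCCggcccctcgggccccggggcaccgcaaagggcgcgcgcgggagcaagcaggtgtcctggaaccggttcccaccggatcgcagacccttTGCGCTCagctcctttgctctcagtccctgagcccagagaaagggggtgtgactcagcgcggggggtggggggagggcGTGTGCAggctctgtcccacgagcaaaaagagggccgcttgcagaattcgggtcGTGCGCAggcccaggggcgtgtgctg
Mt3: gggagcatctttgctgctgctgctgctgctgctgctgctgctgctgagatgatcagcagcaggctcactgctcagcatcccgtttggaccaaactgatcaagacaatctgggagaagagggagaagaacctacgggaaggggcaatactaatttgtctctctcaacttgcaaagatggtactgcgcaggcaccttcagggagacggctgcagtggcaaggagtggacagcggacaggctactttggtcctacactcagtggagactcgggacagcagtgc

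The whole 300-base window held 4 core matches at Mt2, 3 at Mt1 and 1 at Mt3, the last of these ending past the printed stretch. Of all 32851 RefSeq windows of that length, 25.7% held at least 1 match, 6.14% at least 2, 1.31% at least 3 and 0.295% at least 4. Slc30a1 and Slc30a10 had 2 matches each, 1 of the 2 windows of Slc30a3 and 1 of the 2 of Slc39a8 had 1, and the Mtf1 window had none of these letters. Slc39a14 was not searched, which left 8 of the 9 members. GENCODE M21 also places transcript starts 242 bases beyond the RefSeq start at Mt2, 122 and 152 bases beyond it at Mt1 and 139 bases beyond it at Mt3, and the windows end before these. A match is a run of letters and not a measured binding site.

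Of the 9 members, 6 were differentially expressed genes (DEGs), defined here as an adjusted p under 0.05 in edgeR's quasi-likelihood test over all 18569 genes and a fold change over 1.2. Mt1, Mt2, Slc39a14 and Slc39a8 rose, Slc30a3 and Slc30a10 fell, and Mt3, Slc30a1 and Mtf1 were not called. The same test called 41.8% of all genes, 21.8% as higher and 19.9% as lower after I/R, so a call on its own was common in these libraries. The balance of directions over all genes rested on the scaling, with 4054 higher and 3702 lower as fitted and 6334 higher and 2027 lower without composition factors. The 6 called members had the same direction and call under both. The median log2 fold change of the members was 0.17, beside 0.03 over all genes tested. The I/R and sham libraries did not overlap for 7 of the 9 members, against 57.4% of all genes tested.

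**Figure D1:**
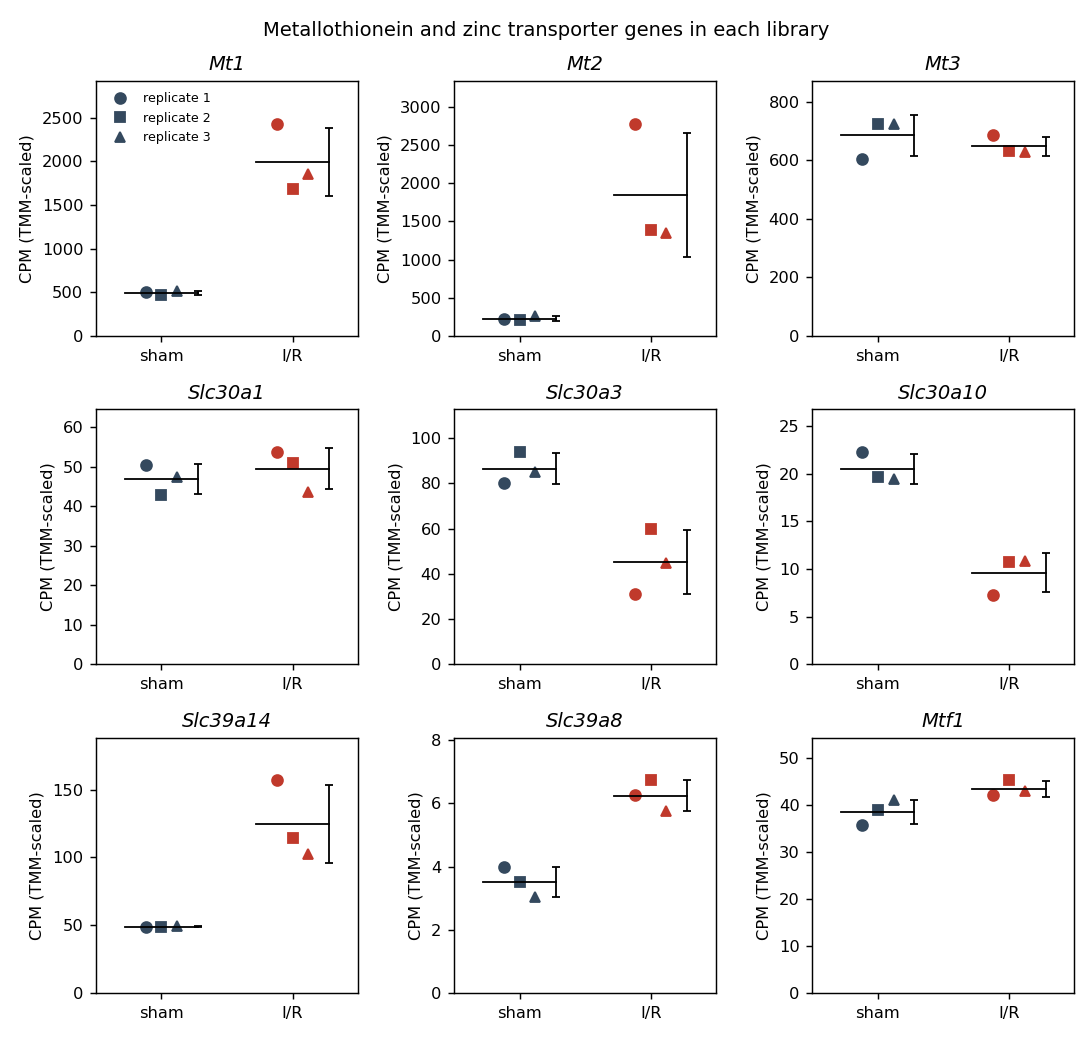
CPM on TMM-scaled library sizes of each member in the 3 sham (dark) and 3 I/R (red) libraries, each on its own axis from 0; marker shapes give the replicate, horizontal lines the group mean and bars 1 SD. All 3 I/R libraries sit above sham for Mt1, Mt2, Slc39a14, Slc39a8 and Mtf1 and below it for Slc30a3 and Slc30a10, while the groups overlap for Mt3 and Slc30a1.

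Mt1 rose 4.03-fold. Mt1 (MGP_BALBcJ_G0033932, chromosome 8, 91951854 to 91953090, plus strand, in the table's own coordinates) read 2435, 1688 and 1861 CPM in I/R replicates 1, 2 and 3 and 505, 468 and 512 CPM in sham replicates 1, 2 and 3. The lowest I/R library was thus above every sham library, and the means were 1995 ± 391 and 495 ± 23.4 CPM (SD, n = 3 each). The log2 fold change was 2.01 (SE 0.17, edgeR adjusted p = 0.000347).

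Mt2 rose more, 8.07-fold. Mt2 (MGP_BALBcJ_G0033931, 91945113 to 91946062) read 2779, 1392 and 1353 CPM in the I/R libraries and 221, 205 and 259 CPM in the sham libraries. I/R replicate 1 stood well above the other I/R libraries, and every I/R library was above every sham library. The means were 1841 ± 812 and 228 ± 27.7 CPM (SD, n = 3 each), and the log2 fold change was 3.01 (SE 0.31, edgeR adjusted p = 0.000559). Leaving out I/R replicate 1 lowered this to 2.58. In GENCODE M21, 45.8% of the 50-base stretches of Mt2 transcripts also occur in the gene model Gm45774, so reads there could be split or dropped by the counting.

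Mt3, the brain-enriched metallothionein also called growth inhibitory factor, did not pass the test. Mt3 (MGP_BALBcJ_G0033930, 91924948 to 91926489) read 686, 630 and 627 CPM in the I/R libraries and 606, 726 and 724 CPM in the sham libraries. The groups overlapped, with means of 648 ± 32.7 and 685 ± 68.8 CPM, and the fitted difference was -0.08 on the log2 scale (SE 0.12, adjusted p = 0.635 in edgeR). The sign depended on scaling: without composition factors and on the deposited FPKM the change was positive, up to 0.18, and also not called.

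Mt1 and Mt2 were among the most abundant genes of the I/R libraries. By raw count, Mt1 ranked 6th, 12th and 12th in I/R replicates 1 to 3 and 293rd, 330th and 292nd in the sham libraries. Mt2 ranked 5th, 18th and 23rd after I/R and 1030th, 1168th and 814th in sham. Together they made up 0.60%, 0.328% and 0.341% of all counts in the I/R libraries, against 0.0668%, 0.0611% and 0.0707% in sham. In CPM gained after I/R, Mt2 was 1st and Mt1 3rd of the 18569 genes tested, and without I/R replicate 1 they were 4th and 3rd.

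The makeup of the metallothionein messages changed with the level. Mt3 gave 45.5%, 51.9% and 48.4% of the Mt1, Mt2 and Mt3 counts in the sham libraries and 11.6%, 17.0% and 16.3% in the I/R libraries. Their summed level was 4484 ± 1228 CPM in the I/R libraries and 1408 ± 81.8 CPM in the sham libraries (SD over 3 each). The share of Mt2 rose from 16.2% ± 1.39 to 39.9% ± 6.31 and that of Mt1 from 35.2% ± 2.37 to 45.1% ± 3.61.

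**Figure D2:**
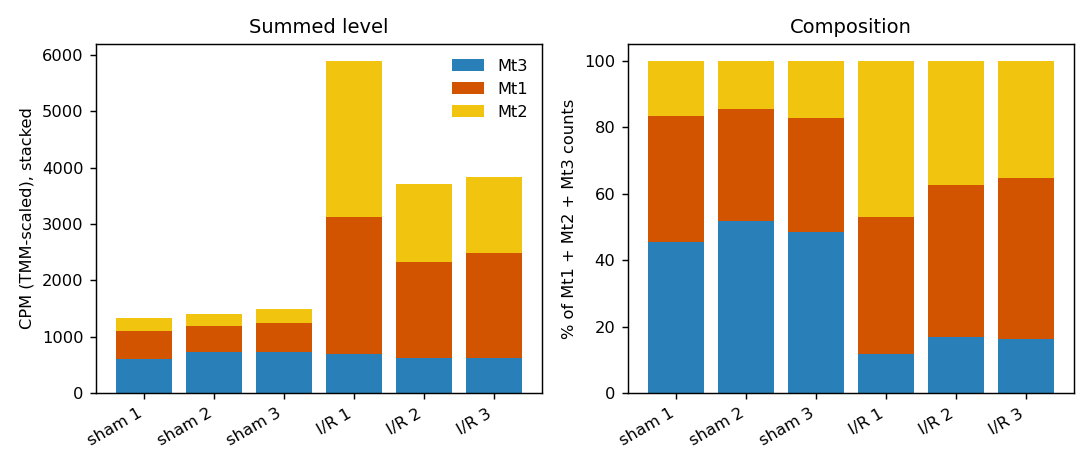
Left, CPM of Mt3, Mt1 and Mt2 stacked for each sham and I/R library; right, each gene's percentage of the Mt1, Mt2 and Mt3 counts in that library. The blue Mt3 part is of like height in all 6 libraries on the left and shrinks from 45.5% or more in sham to 17.0% or less in I/R on the right.

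A ratio of counts within a library does not depend on how libraries are scaled. Mt2 had 1.14, 0.825 and 0.727 counts per Mt1 count in the I/R libraries and 0.438, 0.437 and 0.506 in the sham libraries. Every I/R ratio was above every sham ratio, and the mean log2 ratio differed by 0.94. Mt3 had 0.282, 0.373 and 0.337 counts per Mt1 count after I/R against 1.2, 1.55 and 1.41 for the sham libraries, which differ by -2.07 on the log2 scale. With 3 libraries against 3, an exact two-sided permutation test cannot go below p = 0.1, and each ratio compared between the groups, Slc30a3 to Slc30a1 included, reached that value (0.1 also after adjustment over the 3 ratios).

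Astrocytes are known to express Mt1 and Mt2, so the astrocyte marker list was read beside them. Of its 10 genes, 2 rose, 6 fell and 2 were not called. Those that rose were Gfap (log2 fold change 2.31) and Aqp4 (0.52). The Aqp4 call was lost when any 1 library other than I/R replicate 1 was left out. The summed level was 5145 to 5471 CPM after I/R and 5663 to 5980 CPM in sham. That sum joined large opposite changes. Mean Gfap rose from 403 CPM in sham to 1998 CPM after I/R, while mean Slc1a2 fell from 3082 to 1588 CPM. Slc1a3 and Fgfr3 lost their lower call without sham replicate 3, and without composition factors 3 of the 10 were higher and 4 lower. Markers of endothelium and mural cells summed to 394 to 636 CPM after I/R and 275 to 292 CPM in sham, with 7 of 8 higher and 1 lower. Microglial markers had 4 of 7 tested higher and 2 lower, at 375 to 528 against 272 to 305 CPM, with Itgam listed at 0 in all libraries. Markers of infiltrating myeloid cells had 5 of 6 tested higher, at 17.2 to 57.1 against 4.36 to 5.91 CPM. Over all genes, 21.8% were called higher and 19.9% lower, and the marker lists were chosen with earlier results of these data known. The part of these cell types in the metallothionein result was not tested. In bulk tissue, fewer cells of a type and less RNA per cell cannot be told apart.

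Of the importers, Slc39a14 rose 2.55-fold. ZIP14, its product, carries zinc, manganese and non-transferrin iron into cells and is known in the liver as induced by interleukin-6. Slc39a14 (MGP_BALBcJ_G0021500, chromosome 14, 63333515 to 63381352, minus strand) read 157, 114 and 103 CPM in the I/R libraries and 48.6, 48.8 and 49.2 CPM in the sham libraries. The sham libraries were nearly equal while I/R replicate 1 was the highest, and the groups did not overlap. The means were 125 ± 28.5 and 48.9 ± 0.306 CPM (SD, n = 3 each), and the log2 fold change was 1.35 (SE 0.15, edgeR adjusted p = 0.00075).

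Slc39a8, which encodes the related importer ZIP8, rose 1.78-fold from a low level. Slc39a8 (MGP_BALBcJ_G0027881, chromosome 3, 133701255 to 133763876, plus strand) read 6.26, 6.73 and 5.75 CPM after I/R and 4.0, 3.52 and 3.02 CPM in sham. These are 230 to 285 counts per I/R library and 104 to 156 per sham library, without overlap. The log2 fold change was 0.83 (SE 0.18, edgeR adjusted p = 0.00825).

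Of the Slc30 family members, Slc30a3 fell 1.91-fold. Slc30a3 (MGP_BALBcJ_G0029385, chromosome 5, 28630254 to 28653847, minus strand) read 31.2, 59.6 and 44.6 CPM in the I/R libraries and 80.2, 93.8 and 85.0 CPM in the sham libraries. I/R replicate 1 was the lowest of all, and no I/R library reached the sham range. The means were 45.2 ± 14.2 and 86.3 ± 6.89 CPM (SD, n = 3 each), and the log2 fold change was -0.94 (SE 0.21, edgeR adjusted p = 0.00921).

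Slc30a10, whose product is known mainly as a manganese exporter of the ZnT family, fell 2.13-fold. Slc30a10 (MGP_BALBcJ_G0016854, chromosome 1, 184974098 to 184987976, plus strand) read 7.25, 10.8 and 10.8 CPM in the I/R libraries and 22.3, 19.7 and 19.5 CPM in the sham libraries. Every I/R library was below every sham library, and replicate 1 was again the lowest. The means were 9.61 ± 2.05 and 20.5 ± 1.56 CPM (SD, n = 3 each), and the log2 fold change was -1.09 (SE 0.17, edgeR adjusted p = 0.00237). Gm2061 overlaps Slc30a10 by 720 bases on the other strand and had a log2 fold change of -1.51. Whether the counting used strand is not given in the sources used here.

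Slc30a1, the zinc exporter of the plasma membrane and a classical MTF1 target, did not pass the test. Slc30a1 (MGP_BALBcJ_G0016886, chromosome 1, 191497425 to 191503903, plus strand) read 53.7, 51.0 and 43.7 CPM after I/R and 50.5, 42.9 and 47.3 CPM in sham. The groups overlapped, and the log2 fold change was 0.08 (SE 0.11, edgeR adjusted p = 0.602). The gene 1700034H15Rik overlaps Slc30a1 by 761 bases on the other strand and had a log2 fold change of -0.55. Slc30a3 had 0.581, 1.17 and 1.02 counts per Slc30a1 count after I/R against 1.59, 2.19 and 1.80 for sham, differing by -1.06 on the log2 scale, which was -0.75 without I/R replicate 1.

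Neuronal markers fell in the same libraries as Slc30a3 and Slc30a10. All 7 general neuron markers tested, 7 of 8 dentate granule markers and all 8 pyramidal markers were DEGs with lower levels after I/R. Over all genes, 19.9% were called lower, and these lists were chosen with earlier results of these data known. As percentages of the sham mean, Slc30a3 stood at 36.2%, 69.1% and 51.7% in I/R replicates 1, 2 and 3, and Slc30a10 at 35.4%, 52.6% and 52.7%. The summed general neuron markers stood at 24.3%, 48.4% and 53.3%, the dentate granule markers at 28.5%, 48.7% and 52.7% and the pyramidal markers at 25.1%, 49.8% and 51.9%. Replicate 1 was the lowest of the 3 for each of these genes and lists. This order was not particular to neuronal markers. The zinc transporter Slc39a12 stood at 36.2%, 61.1% and 58.0% in I/R replicates 1, 2 and 3. Slc1a2, of the astrocyte list, read 1152, 1781 and 1830 CPM there against a sham mean of 3082 CPM. The summed astrocyte markers stood at 90.5%, 88.6% and 94.2%, with replicate 2 the lowest. The part of neuronal content in the fall of Slc30a3 and Slc30a10 was not tested.

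**Figure D3:**
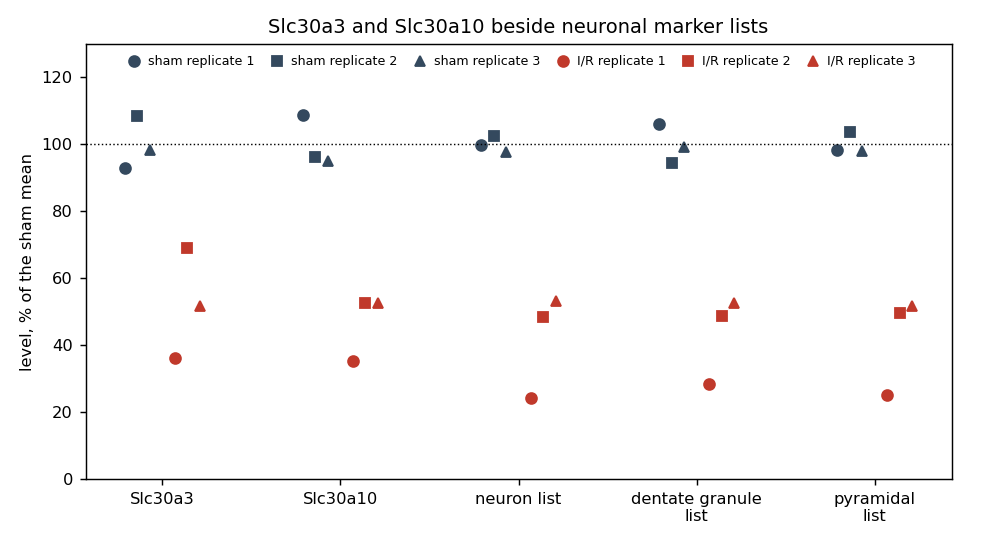
Level in each library as a percentage of the sham mean (dotted line) for Slc30a3, Slc30a10 and the summed CPM of 3 neuronal marker lists, with sham dark, I/R red and marker shapes for replicates. All I/R libraries lie between 24.3% and 69.1%, below every sham library, and I/R replicate 1 is the lowest in each column.

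I/R replicate 1 was also the highest I/R library for Mt1, Mt2 and Slc39a14, for the endothelial and mural sum and for the infiltrating myeloid sum. It was likewise the highest for Mt3 and Slc30a1, which were not called, and for the microglial and oligodendrocyte marker sums. Leaving it out gave log2 fold changes of 1.84 for Mt1, 1.15 for Slc39a14, -0.73 for Slc30a3 and -0.93 for Slc30a10, each again a DEG. Choroid plexus markers set other libraries apart: their sum was 43.2 CPM in I/R replicate 3 and 43.7 CPM in sham replicate 1, against 1623 to 4520 CPM in the other 4. With this content as a covariate, the same 6 members were called.

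Mtf1, the sensor itself, had non-overlapping groups but did not pass the test. Mtf1 (MGP_BALBcJ_G0028736, chromosome 4, 121973818 to 122024990, plus strand) read 42.1, 45.3 and 42.9 CPM after I/R and 35.9, 38.9 and 41.0 CPM in sham. The log2 fold change was 0.17 (SE 0.09, edgeR adjusted p = 0.162), a 1.13-fold difference that is below the fold of 1.2 asked of a DEG. It was called higher where no composition factor was used, at 0.43, and on the deposited FPKM. An unnamed gene on the other strand overlaps Mtf1 by 721 bases and had a log2 fold change of -0.61.

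Levels can be compared between genes only per length, so CPM per kilobase of the listed gene length was used. In sham the order was Mt3 at 1276 ± 128, Mt1 at 917 ± 43.4 and Mt2 at 411 ± 49.9 CPM per kilobase, with no overlap among the 3. Slc30a3 followed at 47.4 ± 3.78, ahead of Slc39a14 at 9.56 ± 0.0598 and Slc30a1 at 8.95 ± 0.73, whose libraries overlapped. Mtf1 at 5.06 ± 0.338, Slc30a10 at 3.51 ± 0.267 and Slc39a8 at 0.834 ± 0.116 were the lowest.

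After I/R, Mt1 at 3694 ± 724 and Mt2 at 3312 ± 1461 CPM per kilobase overlapped each other and both lay above Mt3 at 1206 ± 61.0. Slc30a3 at 24.8 ± 7.80 and Slc39a14 at 24.4 ± 5.56 also overlapped, as did Slc30a10 at 1.65 ± 0.351 and Slc39a8 at 1.48 ± 0.116. Slc30a1 at 9.44 ± 0.993 and Mtf1 at 5.70 ± 0.215 kept ranks 6 and 7. The deposited FPKM rests on another length than the listed one for 5 of the 9 members, and it puts Slc39a14 above Slc30a3 and Slc39a8 above Slc30a10 after I/R.

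The rest of the 2 transporter families moved in both directions. Of 20 further genes of the Slc30, Slc39 and Mt families, 17 were tested, of which 4 rose, 4 fell and 9 were not called, with a median log2 fold change of 0.12. That is 8 of 17 called, beside 41.8% of all genes. Without composition factors, 7 rose and 2 fell, and the balance of directions thus shifted with the scaling.

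Slc39a12, which encodes the brain-enriched importer ZIP12, fell from 51.2 ± 8.10 to 26.5 ± 6.93 CPM, or by 0.95 on the log2 scale (SE 0.21, adjusted p = 0.00808 in edgeR). Slc39a3, a ZIP importer, fell from 121 ± 5.62 to 78.5 ± 6.11 CPM (log2 fold change -0.63, SE 0.09, edgeR adjusted p = 0.00162). Both remained DEGs in all 17 alternative fits. The others that fell were Slc30a9 at -0.50, whose call was lost without each sham library in turn, and Slc39a11 at -0.37, lost without sham replicate 2.

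The row named Slc39a1 rose from 19.5 ± 0.268 to 41.5 ± 3.52 CPM (log2 fold change 1.09, SE 0.10, edgeR adjusted p = 0.000375). Its identity is uncertain, because the table places it on chromosome 2 while RefSeq places Slc39a1 on chromosome 3. Without that row, 3 genes rose and 4 fell of 16, with a median of 0.10. Slc30a4, a vesicular transporter, at 0.35, Slc30a7, a transporter of the secretory pathway, at 0.34 and Slc39a6 at 0.27 also rose. Leaving out 1 library ended the call of Slc30a4 for all but I/R replicate 1, that of Slc30a7 for I/R replicates 2 and 3 and sham replicates 1 and 2, and that of Slc39a6 for all but I/R replicate 2.

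Over both sets, the Slc30 family had 2 higher and 3 lower of 8 tested, and the Slc39 family 4 higher and 3 lower of 14. Over all genes, 21.8% were called higher and 19.9% lower. The Slc39 count includes the row named Slc39a1, whose identity is uncertain. Mt4, known mainly from squamous epithelia, was too low to be tested, with 22, 9 and 16 counts in the I/R libraries and 1, 0 and 0 in sham. Against a floor of 3 counts per sham library, its I/R level was at least 4.66-fold higher. Slc30a2 and Slc30a8 had at most 1 count in any library.

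**Figure D4:**
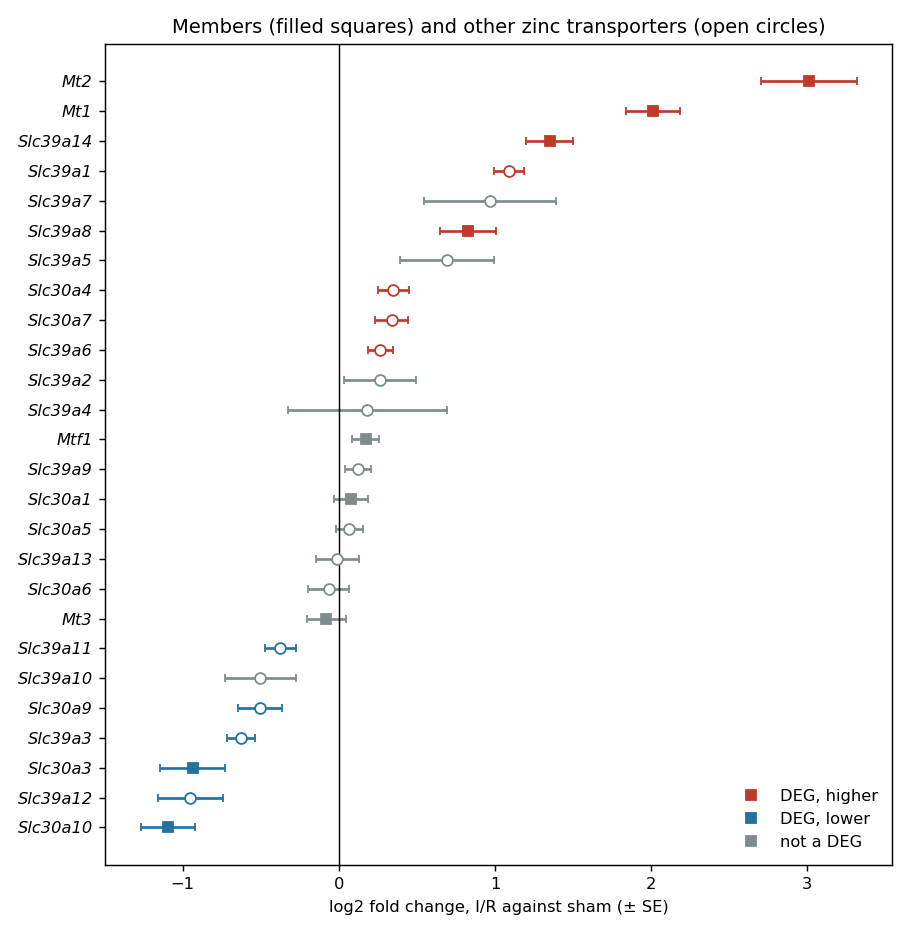
Log2 fold change between I/R and sham (x axis, bars 1 SE) from the edgeR fit for the 9 members (filled squares) and the 17 tested other zinc transporters (open circles), sorted by size, with DEGs in red (higher) or blue (lower) and others in grey. Mt2, Mt1 and Slc39a14 stand at the top at 3.01, 2.01 and 1.35, and Slc30a3, Slc39a12 and Slc30a10 at the bottom at -0.94, -0.95 and -1.09.

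Further lists were read beside the members. Metallothioneins also bind copper, and of 9 copper handling genes tested only Atp7a, a copper-exporting ATPase, was a DEG, higher by 0.70 on the log2 scale (SE 0.22, adjusted p = 0.0377 in edgeR). That call was lost without I/R replicate 2 and without each sham library in turn, while 2 genes passed without I/R replicate 1 or 3. The count of 1 in 9 stands beside 41.8% of all genes called, and it rested on the scaling. Without composition factors, and on FPKM plus 1 or 0.1, 6 of the 9 were called higher. The superoxide dismutases Sod1, at 0.28 (edgeR adjusted p = 0.0634), and Sod3, at 0.65 (0.129), did not pass, and Sco2 was listed at 0.

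Of 6 textbook glucocorticoid-induced genes, Pdk4 at 1.10, Per1 at 0.73 and Sgk1 at 0.64 rose, while Fkbp5 at -0.25, Tsc22d3 at -0.16 and Zbtb16 at -0.19 were not called. These are 3 of 6, beside 41.8% of all genes called and 21.8% called higher. Of 6 genes induced through STAT3, all 6 were higher against the same 21.8%, with a median log2 fold change of 4.77. Both lists were chosen with earlier results of these data known, so these counts describe and do not test. Timp1 stood at 6.90, Socs3 at 5.17, Lcn2 at 4.88, Bcl3 at 4.66, Osmr at 3.92 and Stat3 at 2.07. Timp1 had only 21, 27 and 12 counts, and Bcl3 25, 30 and 7, in sham replicates 1, 2 and 3. The call of Sgk1 was lost without each library in turn except sham replicate 3, Fkbp5 passed as lower without I/R replicate 2, and the call of Lcn2 was lost without I/R replicate 1. Lcn2 had 318, 60 and 12 counts in sham replicates 1, 2 and 3, and its log2 fold change ran from 4.25 without I/R replicate 1 to 6.70 without sham replicate 1. No link between these lists and the metallothioneins was tested.

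For each member called with a fold over 2, the 3 named genes with the nearest profile were taken, by the root mean square difference over the 6 libraries of log2 CPM centered on the sham mean. They were Myd88 (0.0462), Trf (0.0925) and Stat3 (0.10) for Mt1, and Gem (0.0710), Ifitm3 (0.0990) and Kdm6bos (0.109) for Mt2. For Slc39a14 they were Nop14 (0.0418), Slc3a2 (0.0550) and Rnh1 (0.0555), and for Slc30a10 Evc2 (0.0539), D430019H16Rik (0.0541) and Skida1 (0.0618). Among the members, the nearest pairs were of those not called. Slc30a1 and Mtf1 differed by 0.159, Mt3 and Mtf1 by 0.193 and Mt3 and Slc30a1 by 0.194. Among the called members, Slc30a3 and Slc30a10 differed from each other by 0.200 and Slc39a14 and Slc39a8 by 0.409. Mt1 and Slc39a14 differed by 0.482 and Mt1 and Mt2 by 0.696. A smaller value is a nearer profile, and each rests on the same 6 libraries as the fold changes. The levels were not scaled, so this measure largely restates a like fold change. Beside Mt1 at 2.01 on the log2 scale, Myd88 stood at 2.05, Trf at 1.96 and Stat3 at 2.07. Shared regulation was not tested. Kdm6bos had as few as 2 counts in a library, so its nearness to Mt2 is less certain.

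The neighbours of the metallothioneins on chromosome 8 moved in both directions. Mt4, Mt3, Mt2 and Mt1 span 44751 bases, and 12 other genes lie within 250 kb of either end, a set looked at after its values were seen. Of the 10 tested, Nup93, Slc12a3 and Herpud1 rose, Gnao1 and Ogfod1 fell and 5 were not called. This is 5 of 10 called, beside 41.8% of all genes, 21.8% higher and 19.9% lower. Nup93, Slc12a3 and Herpud1 lie on the Mt1 side. Nup93, a nuclear pore gene that begins 38.3 kb beyond the end of Mt1, read 94.0, 61.2 and 69.7 CPM after I/R and 25.4, 25.2 and 25.1 CPM in sham, with a difference of 1.57 on the log2 scale (SE 0.16, adjusted p = 0.000519 in edgeR). Slc12a3, a sodium-chloride cotransporter known from the kidney, had only 240, 24 and 48 counts after I/R and 4, 2 and 2 in sham (log2 fold change 5.02, SE 0.98, edgeR adjusted p = 0.00541), and its call was lost on FPKM plus 1, at 0.72. I/R replicate 1 held most of these counts, and leaving it out gave 3.62 on the log2 scale. On the Mt3 side, Ogfod1 fell by 0.74 and Gnao1 by 0.57 on the log2 scale.

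**Figure D5:**
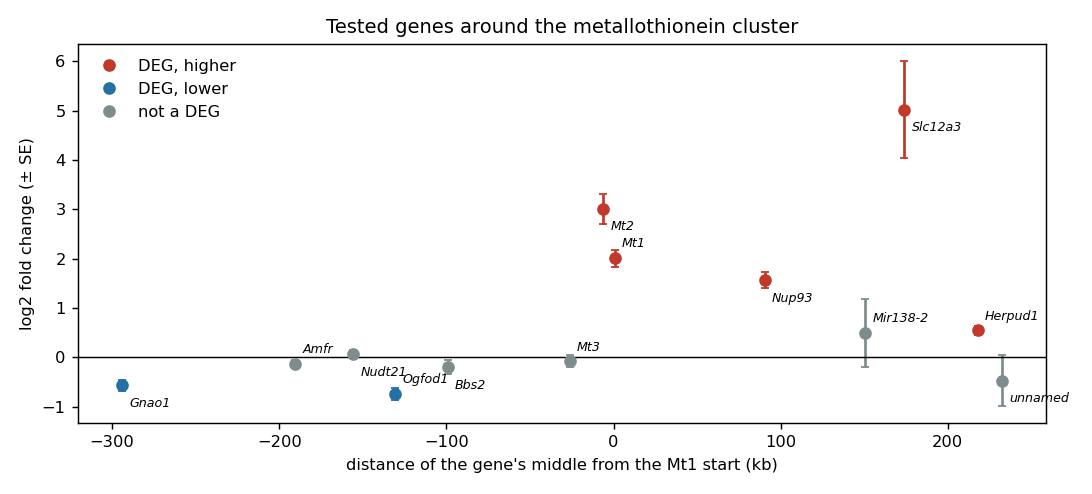
Log2 fold change (bars 1 SE) of each tested gene within 250 kb of the metallothionein cluster against the distance of its middle from the Mt1 start in kilobases, with DEGs in red (higher) or blue (lower) and others in grey. Mt2, Mt1, Nup93, Slc12a3 and Herpud1 are red at 0.55 to 5.02, and Mt3 lies at -0.08 between them and the genes of the other side.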

How the data were processed

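RNA-seq of 6 hippocampal pools (3 I/R, 3 sham) was used. The authors deposited 1 table of raw read counts and FPKM per gene, with 40303 genes under BALB/cJ identifiers and 1083 assembled loci, while the mice were C57BL/6J. The study's methods name TopHat2, Ensembl and HTSeq, whereas the submitters' processing notes name Bowtie 0.12.2 and mm8; which made the table is not given in the sources used here. Gene coordinates are printed as the table gives them. Columns of the authors' own comparison (fold changes and p-values) were not used, and no other per-sample column was left out (0). Split lines (4) were rejoined. Per-gene length in the deposited FPKM matched the listed length within 1% for 34.8% of tested genes.

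Counts were filtered with filterByExpr and tested with edgeR 4.0.16 (TMM, robust quasi-likelihood F-test, R 4.3.3) over all 18569 genes with Benjamini-Hochberg adjustment. The DEG rule was adjusted p below 0.05 with more than 1.2-fold difference. The script was tested on simulated data. Alternatives used DESeq2 1.42.0, limma 3.58.1, other scalings and filters, FPKM plus 1 or 0.1, a replicate block, a choroid plexus covariate, and each library left out. Adding 1 to FPKM shrinks the log2 fold changes of low genes. Slc39a8 stood at 0.83 as fitted, 0.63 on FPKM plus 1 and 1.02 on FPKM plus 0.1. The median over all genes was 0.26 on FPKM plus 0.1, beside 0.03 as fitted. Libraries held 37493042 to 44788547 counts, and the lowest count of a member in a library was 104.

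The members, gene lists and markers were chosen with earlier results of these data known. By rule, all members are named with values, any tested gene of the fixed lists could be, and each called member with a fold over 2 has its 3 nearest profiles named. Neighbours of the cluster were named after their values were seen. The list genes Cox17, Commd1, Map2 and Ly6c2 were not matched and are not analysed here. Oligodendrocyte markers had 1 of 8 higher and 3 lower, beside 21.8% of all genes called higher and 19.9% called lower. Promoter windows are RefSeq, GRCm38.p6.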

Additional observations from a re-analysis of the deposited data

How the results depend on the processing

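The 6 called members were DEGs in the same direction in all 17 alternative fits, and 4 of them passed a fold over 2 (3 higher, 1 lower). Without composition factors the median log2 fold change of all genes was 0.28 in place of 0.03, and 7 members passed there and on FPKM, Mtf1 being added. Over all genes, 7756 DEGs became 2760 at a fold over 2, and 5330 to 7976 with 1 library left out. The 8 other zinc transporters called became 4 to 7 with 1 library left out. Copper handling genes called, 1 as reported, were 6 without composition factors and 6 on FPKM plus 1 or 0.1, 2 with upper-quartile factors, with at least 10 counts in every library or with DESeq2, 3 with the choroid plexus covariate, and 0 to 2 with 1 library left out. Glucocorticoid-induced genes called were 2 to 3, and STAT3-induced genes 5 to 6, with 1 library left out. The highest member level per length in sham was 1530 times the lowest, and 1232 times on deposited FPKM, which uses other lengths.

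No pairing by replicate number was seen in the counts. The labels do not state whether the libraries were paired, and low correlations cannot exclude it. The deviations of same-numbered I/R and sham libraries correlated at -0.092, 0.057 and -0.178, and not every library correlated best with its own number. With the replicate number as a block, 6332 genes, 6 members, 4 other zinc transporters, 0 copper handling genes, 3 glucocorticoid-induced and 6 STAT3-induced genes were called.

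With 3 pools per group, exact tests of a single ratio could not go below p = 0.1. The cause of the changed counts was not tested.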
